A study of Mus musculus with 17 samples.

Results

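Liver RNA of 2 Nampt OE mice given acetaminophen (APAP) at 200 mg/kg was compared with liver RNA of 3 Nampt +/+ mice given the same dose. The 5 libraries, of 17 in the series, were chosen by the genotype and treatment in their labels, and 11119 of the 46073 genes in the table were tested. A gene was tested where its 5 values averaged 1 FPKM or more and its estimates had not failed in a group. Alb (albumin, the main secreted protein of hepatocytes) is listed at 0 in every library and could not be used. FPKM count sequenced fragments per length of transcript and per size of library. All mice were male C57BL/6, a common inbred strain, and their livers were taken 24 h after the injection. OE is not spelled out in the labels, and what promoter or allele drives it is not given in the sources used here, nor is the route of the injection of each mouse, which the labels give as IP or IG for the study as a whole. The first OE liver (OE APAP 1) came from a mouse of 11 weeks, was not perfused and was sequenced on lane L004. The second (OE APAP 2) came from a mouse of 12 weeks, was perfused and was sequenced on lane L008. The 3 +/+ livers (WT APAP 1 to 3) came from mice of 11 weeks, were not perfused and were sequenced on lane L005. Replicate numbers follow the order of deposition and are only names. Saline livers of the same genotypes (2 OE and 3 WT) entered the fit, and their values are quoted where they touch a result. So did Nampt +/- livers (Het) given APAP or saline, an OE liver of 12 weeks given 300 mg/kg and a WT saline liver labelled IG. WT saline 1 and 2 came from mice of 12 weeks, were perfused and were sequenced on lane L007. WT saline 3 was of 11 weeks, not perfused and on lane L006. OE saline 1 (perfused, lane L008) and OE saline 2 (not perfused, lane L004) were of 11 weeks.

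Nampt makes nicotinamide mononucleotide from nicotinamide and is the rate-limiting enzyme of the salvage route to NAD, the cofactor that dehydrogenases reduce and that sirtuins and PARPs consume. Hepatocytes inactivate most APAP by coupling it to glucuronic acid or sulfate. At high dose cytochrome P450s oxidise some of it to a reactive metabolite, which uses up glutathione, damages mitochondria and kills hepatocytes around the central vein, and the surviving hepatocytes lower many of their metabolic genes while acute phase genes rise. By its title the study was about whether Nampt protects against this injury.

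No lane held both OE and WT livers given APAP, and lane, genotype and, in part, perfusion cannot be told apart. Group differences are log2(FPKM + 1) differences from limma across all 17 libraries with a term for perfusion, given with their standard error, and a gene passed at a Benjamini-Hochberg adjusted p below 0.05 over all genes tested. Single OE libraries are also given as the library minus the mean of the 3 WT APAP libraries, before any perfusion term, while their tests come from the fit with that term. The labels do not state that each library was a different mouse. The p-values therefore reflect the spread among these libraries, which may be technical in part. The read depth is unknown. The 5 libraries held 10726 to 11496 genes at 1 FPKM or more. Hepatocyte genes were high in all of them: Apoa1, the main protein of high density lipoprotein, stood at 5367 and 6672 FPKM in OE APAP livers and at 6116, 5425 and 3842 FPKM in WT APAP livers. The median absolute log2 difference between libraries was 0.324 between both OE livers, 0.304 to 0.370 between OE APAP 1 and a WT liver, 0.240 to 0.291 between OE APAP 2 and a WT liver, and 0.204 to 0.262 among the WT livers. By this measure the OE livers lay as far from each other as OE APAP 1 lay from the WT livers.

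Nampt mRNA (ENSMUSG00000020572, chromosome 12, 32819545 to 32853349, plus strand of GRCm38) stood at 36.0 and 18.5 FPKM in OE APAP livers, against 12.0, 10.9 and 16.8 FPKM in WT APAP livers. Both OE livers lay above every WT liver, the second by a narrow margin over WT APAP 3. The group difference was 1.05 ± 0.26 and did not pass (limma adjusted p = 0.122). OE APAP 1 alone lay 1.40 ± 0.25 above the WT mean and passed (limma adjusted p = 0.0329). OE APAP 2 alone lay 0.48 above it, or 0.51 with the perfusion term, and did not pass (limma adjusted p = 0.991). With lane in place of perfusion the group difference was 0.43. Under saline Nampt stood at 22.4 and 27.2 FPKM in OE livers and at 18.0, 15.3 and 18.0 FPKM in WT livers.

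**Figure D1:**
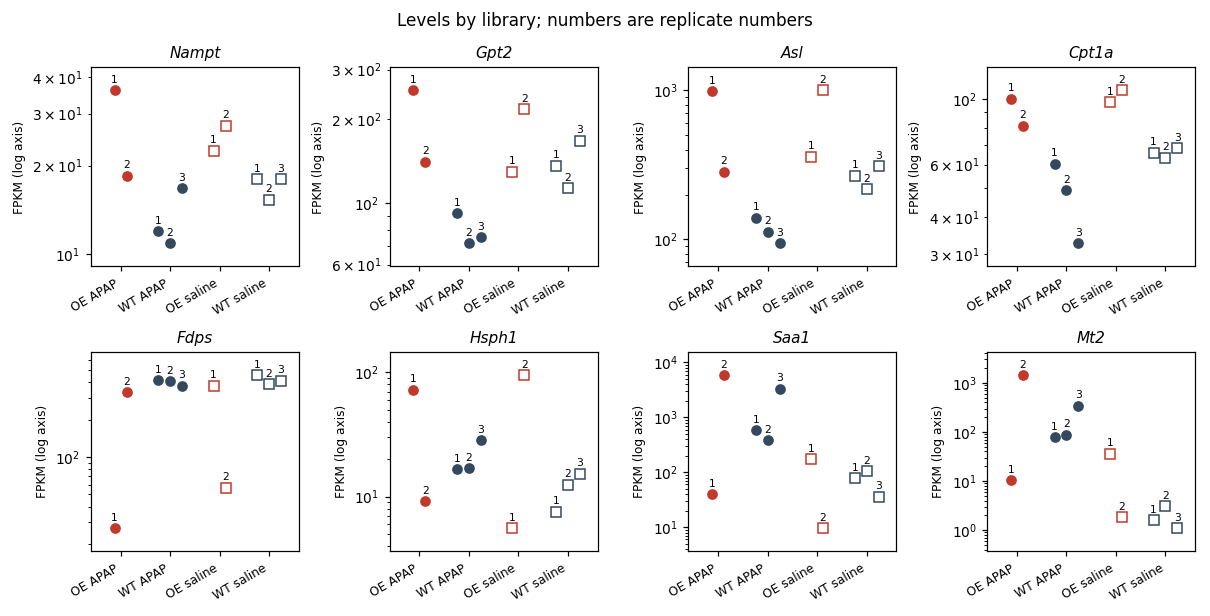
FPKM on a log axis for 8 genes in each library of the OE APAP, WT APAP, OE saline and WT saline groups, each point 1 library with its replicate number (circles APAP, open squares saline, red OE, dark blue WT). Nampt, Gpt2, Asl and Cpt1a were above every WT APAP library in both OE APAP livers, while Hsph1, Saa1 and Mt2 lay on opposite sides of the WT livers in OE APAP 1 and OE APAP 2.

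Across all genes tested, 1 gene passed between the OE and WT groups (0.00899% of genes tested) and 1919 had an unadjusted p below 0.05 (17.3%). The gene that passed was Gpt2 (chromosome 8, 85492576 to 85527560, plus strand), the mitochondrial alanine aminotransferase, which moves amino groups between alanine and glutamate. It stood at 252.7 and 139.9 FPKM in OE APAP livers, against 91.6, 71.5 and 75.3 FPKM in WT APAP livers. Neither OE liver overlapped the WT livers, and the higher one was OE APAP 1. The group difference was 1.53 ± 0.19 (limma adjusted p = 0.0295). It passed in 9 of 26 alternative settings and ranged over them between 1.24 and 1.67, and without OE APAP 1 it was 1.33 and did not pass. Under saline Gpt2 stood at 129.2 and 216.0 FPKM in OE livers, against 135.5, 112.8 and 166.6 FPKM in WT livers, which overlapped.

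Both OE livers lay above every WT liver for 1784 genes (16.0% of genes tested) and below every WT liver for 1259 genes (11.3%). Taken alone, OE APAP 1 differed from the WT livers at 121 genes, 57 higher and 64 lower (1.09% of genes tested, 0.513% and 0.576% by direction), and 20.4% had an unadjusted p below 0.05. It lay outside the WT range above for 35.1% and below for 30.5% of them. OE APAP 2 alone differed at 6 genes, all higher (0.054% of genes tested), and 4.62% had an unadjusted p below 0.05. It lay outside the WT range above for 31.6% and below for 24.6%. Some of the genes higher in OE APAP 2 alone met the 1 FPKM filter only through that liver, as given below. These single-library tests assume that a lone library varies like the other groups. The OE libraries are set against the same 3 WT libraries, so their differences are not independent of each other. Under saline 3 genes differed between OE and WT livers (0.027% of genes tested), 1 higher (0.00899%) and 2 lower (0.018%), and 5.81% had an unadjusted p below 0.05. The counts of list members below are to be read against these shares. The median group difference over all genes tested was 0.03.

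Genes that take amino acids apart and run the urea cycle stood above every WT liver in both OE livers more often than those of any other list examined. Of 31 such genes, all tested, 27 lay above every WT liver in both OE livers and 1 lay below, 1 (Gpt2) passed between the groups, and 25 had an unadjusted p below 0.05. The median difference of the list was 1.12 between the groups, 1.138 for OE APAP 1 alone and 0.82 for OE APAP 2 alone. Taken singly, 28 lay above the WT range in OE APAP 1 and 29 in OE APAP 2, and 8 passed as higher in OE APAP 1 alone. The list's medians in the WT livers themselves were 0.30, -0.01 and -0.32 around their mean. In whole tissue, fewer cells of a type and less RNA per cell cannot be told apart, here and in every list below.

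The urea cycle turns ammonia into urea. Asl (argininosuccinate lyase, chromosome 5, 130011258 to 130029247, minus strand), which releases arginine, stood at 982.2 and 285.2 FPKM in OE APAP livers and at 139.4, 112.9 and 94.0 FPKM in WT APAP livers. The OE liver nearest to the WT livers was still above the highest of them. The group difference was 2.58 ± 0.43 (limma adjusted p = 0.0862), and OE APAP 1 alone passed at 3.10 ± 0.45 (limma adjusted p = 0.0155). Ass1, which makes argininosuccinate, was at 1666 and 1552 FPKM in OE livers and at 943.1, 615.7 and 465.0 FPKM in WT livers. Arg1, which splits arginine into urea and ornithine, was at 1051 and 1205 FPKM in OE livers and at 790.5, 539.2 and 761.2 FPKM in WT livers. Neither overlapped, and neither passed. Cps1, the entry enzyme, did overlap, with 1310 and 708.2 FPKM in OE livers and 787.8, 738.4 and 445.9 FPKM in WT livers. Otc, which joins carbamoyl phosphate to ornithine, stood at 171.8 and 153.5 FPKM in OE livers and at 145.5, 107.6 and 77.3 FPKM in WT livers.

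The enzymes that carry methionine to homocysteine and cysteine stood with Asl, highest in OE APAP 1. Mat1a, which makes S-adenosylmethionine, stood at 2745 and 1022 FPKM in OE APAP livers and at 447.7, 374.8 and 294.9 FPKM in WT APAP livers. Cth, the lyase that makes cysteine from cystathionine, stood at 611.6 and 247.6 FPKM in OE livers and at 126.6, 71.4 and 73.8 FPKM in WT livers. For both genes every OE library was above every WT library. With lane in place of perfusion the group differences were 0.78 for Mat1a and 1.18 for Cth. In the main fit they were 2.48 ± 0.49 for Mat1a and 2.29 ± 0.39 for Cth. Neither passed between the groups (limma adjusted p = 0.0966 and 0.0862), and both passed for OE APAP 1 alone (limma adjusted p = 0.0394 and 0.0155). Ahcy, which splits S-adenosylhomocysteine, stood at 655.2 and 249.0 FPKM in OE livers and at 169.1, 150.3 and 117.3 FPKM in WT livers. Bhmt, which returns homocysteine to methionine, stood at 2566 and 986.0 FPKM in OE livers and at 750.7, 500.0 and 377.8 FPKM in WT livers. Cbs, which feeds Cth, did not follow them: it stood at 131.2 and 224.6 FPKM in OE livers and at 197.2, 159.5 and 117.1 FPKM in WT livers, which overlapped.

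Among enzymes of single amino acids the order of the OE livers varied. Tat, the first enzyme of tyrosine breakdown, stood at 923.0 and 1271 FPKM in OE APAP livers and at 461.5, 408.7 and 389.3 FPKM in WT APAP livers, and was higher in OE APAP 2 than in OE APAP 1. Aass, which starts lysine breakdown, stood at 199.4 and 138.1 FPKM in OE livers and at 89.0, 57.1 and 58.2 FPKM in WT livers (1.44 ± 0.27, limma adjusted p = 0.0966). Neither overlapped. Got1, the cytosolic aspartate aminotransferase, and Sds, which makes pyruvate from serine, were the members with the largest excess in OE APAP 2: Got1 stood at 130 and 257.9 FPKM in OE livers and at 107.8, 46.6 and 48.8 FPKM in WT livers. Sds stood at 85.9 and 305.2 FPKM in OE livers and at 92.7, 43.5 and 77.1 FPKM in WT livers, so that OE APAP 1 lay inside the WT range. Glud1, glutamate dehydrogenase, was the member below every WT liver, with 274.0 and 264.1 FPKM in OE livers against 330.0, 517.0 and 336.9 FPKM in WT livers.

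**Figure D2:**
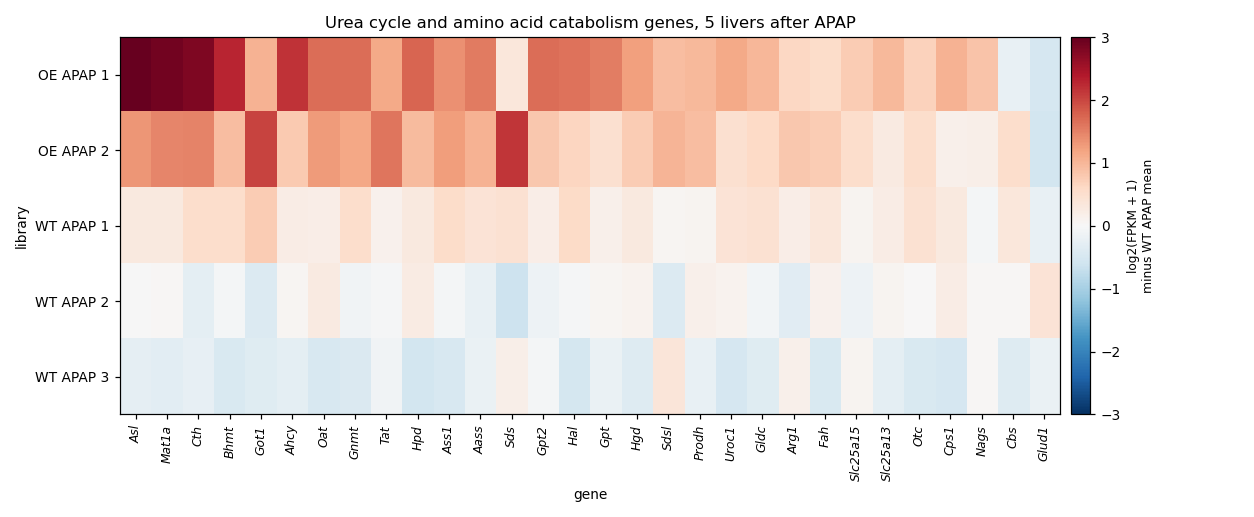
Log2(FPKM + 1) minus the mean of the 3 WT APAP livers (colour, red above and blue below, cut off at 3) for genes of the urea cycle and amino acid catabolism list (columns, all but 1 member, ordered by the mean of both OE livers) in the 5 APAP livers (rows). Both OE rows are red for nearly all genes, with the list median at 1.138 in OE APAP 1 and 0.82 in OE APAP 2, and Glud1 is blue in both.

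Under saline the same list stood closer to the WT livers, with medians of 0.12 in OE saline 1 and 0.33 in OE saline 2 against the WT saline mean. Asl nevertheless stood at 359.3 and 997.8 FPKM in OE saline livers, against 266.4, 217.1 and 308.8 FPKM in WT saline livers, and Mat1a at 790.3 and 2630 FPKM in OE saline livers, against 585.6, 542.1 and 684.6 FPKM in WT saline livers. OE saline 2, like OE APAP 1, was not perfused and was sequenced on lane L004, and both carried the high Asl and Mat1a. The 300 mg/kg OE liver, the third library of that lane, had 330.6 FPKM of Asl and 940.4 FPKM of Mat1a. For the list the median difference of the OE minus WT differences, APAP against saline, was 0.82. No gene passed that test over all genes (limma, 0.0% of genes tested; 669 genes, 6.02%, had an unadjusted p below 0.05). Gpt2 had a difference of differences of 1.34 (limma adjusted p = 0.42).

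Periportal hepatocyte genes, which mark the zone that receives portal blood and houses much of the urea cycle, also stood higher. Of 19 tested, 13 lay above every WT liver in both OE livers and 0 lay below, with a list median of 0.69 between the groups, 0.94 in OE APAP 1 and 0.85 in OE APAP 2. Some members also belong to the amino acid list (Asl and Hal among them). Hsd17b13, a lipid droplet enzyme, stood at 379.9 and 286.8 FPKM in OE APAP livers and at 181.1, 142.0 and 105.6 FPKM in WT APAP livers (1.36 ± 0.24, limma adjusted p = 0.0878). Gls2, the liver glutaminase that frees ammonia for urea, stood at 241.1 and 234.6 FPKM in OE livers and at 135.0, 68.9 and 68.1 FPKM in WT livers. Neither overlapped. Pericentral genes were mixed: of 16 tested, 3 lay above and 3 below every WT liver in both OE livers, and the list median was -0.04. Glul, glutamine synthetase of the last cells around the central vein, stood at 70.5 and 56.3 FPKM in OE livers and at 19.7, 40.1 and 20.8 FPKM in WT livers. Cyp1a2, a P450 of the same zone, lay the other way, at 16.2 and 49.7 FPKM in OE livers and at 53.5, 107.1 and 79.8 FPKM in WT livers. Under saline Glul stood at 101.5 and 312.8 FPKM in OE livers and at 354.0, 320.5 and 374.4 FPKM in WT livers.

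Nuclear genes of the respiratory chain stood modestly higher. Of 21 tested, 16 lay above every WT liver in both OE livers and 0 below, all 21 lay above the WT range in OE APAP 1, and the list median was 0.48; none passed between the groups and 12 had an unadjusted p below 0.05. Ndufs3, a subunit of complex I, stood at 91.9 and 82.7 FPKM in OE APAP livers and at 62.4, 60.1 and 53.4 FPKM in WT APAP livers. Cox5b, a subunit of complex IV, stood at 357.4 and 305.3 FPKM in OE livers and at 216.9, 212.6 and 185.8 FPKM in WT livers. The groups did not overlap for either gene, and the differences were 0.55 ± 0.16 for Ndufs3 and 0.58 ± 0.21 for Cox5b. Proteasome subunits were higher by less: 14 of 26 lay above every WT liver in both OE livers, 1 lay below, and the list median was 0.27.

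The lists of NAD genes were mixed. Of 13 tested genes of NAD salvage and the nicotinic acid route, 6 lay above every WT liver in both OE livers and 0 below. Nampt itself is in this list and among the 6, and the list median, which counts it, was 0.39. Nnmt, which methylates nicotinamide and so takes it out of salvage, stood at 274.4 and 436.2 FPKM in OE APAP livers and at 118.2, 85.9 and 168.7 FPKM in WT APAP livers. It did not overlap, but did not pass (1.52 ± 0.39, limma adjusted p = 0.124). Under saline too both OE livers lay above every WT liver, with 213.7 and 197.9 FPKM in OE livers and 89.0, 62.1 and 87.8 FPKM in WT livers. Nadk, which makes NADP from NAD, stood at 68.7 and 69.8 FPKM in OE APAP livers and at 48.8, 46.2 and 40.3 FPKM in WT APAP livers. Of 11 genes on the route from tryptophan to NAD, 4 lay above and 1 below every WT liver. Tdo2, the first enzyme of that route, stood at 835.4 and 677.0 FPKM in OE livers and at 446.1, 291.8 and 412.6 FPKM in WT livers. Among 16 NAD consumers 1 lay above and 4 below, the list median being -0.14. Parp1, which spends NAD at DNA breaks, stood at 9.32 and 9.83 FPKM in OE livers and at 11.1, 12.9 and 11.6 FPKM in WT livers.

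**Figure D3:**
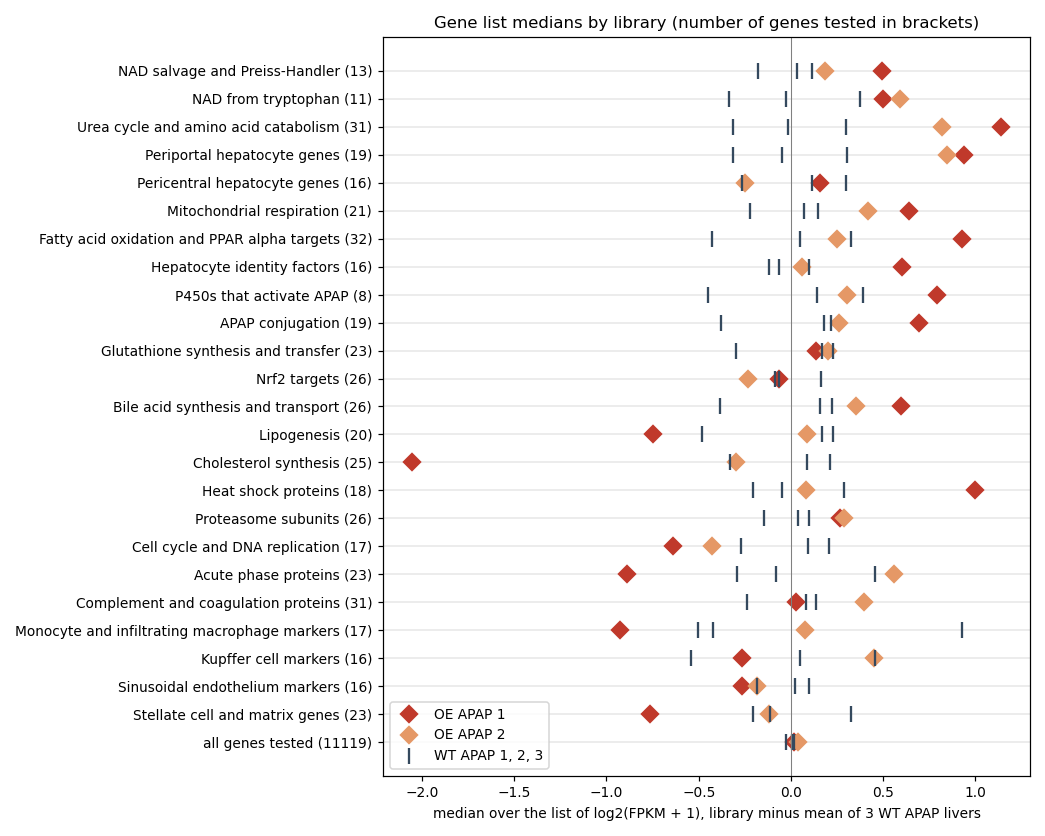
Median over each gene list of log2(FPKM + 1), library minus the mean of the 3 WT APAP livers, with no perfusion term, for OE APAP 1 and OE APAP 2 (diamonds) and for each WT APAP liver (bars), with the number of genes tested in brackets. Both OE livers lie above all WT livers for the urea cycle and amino acid list (1.138 and 0.82), while cholesterol synthesis (-2.05 and -0.30) and acute phase proteins (-0.89 and 0.56) separate the OE livers from each other.

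Fatty acid oxidation genes stood above the WT range more often in OE APAP 1 than in OE APAP 2. The list held genes of fatty acid oxidation, targets of PPAR alpha, the fasting regulator of fat burning, and Ppara itself. Of 32 tested, 25 lay above the WT range in OE APAP 1. In OE APAP 2, 8 lay above it (31.6% of all genes tested did). Only 5 lay above it in both OE livers (16.0% of all genes tested did). List medians were 0.93 in OE APAP 1 and 0.25 in OE APAP 2, which became 0.42 with the perfusion term. The medians of the WT livers were 0.05, 0.33 and -0.43 around their mean, so that OE APAP 2 lay among them without that term. Cpt1a, which gates entry of fatty acids into mitochondria, stood at 100.2 and 81.0 FPKM in OE APAP livers and at 60.3, 49.1 and 32.6 FPKM in WT APAP livers (0.99 ± 0.23, limma adjusted p = 0.119). Cpt2, its partner on the inner membrane, stood at 67.9 and 46.8 FPKM in OE livers and at 29.6, 33.3 and 24.6 FPKM in WT livers. Neither overlapped. Cyp4a14, a fatty acid hydroxylase, stood apart in OE APAP 1 only, with 1350 and 141.1 FPKM in OE livers and 99.4, 211.2 and 74.7 FPKM in WT livers, though reads of Cyp4a genes can be shared among close copies. Under saline Cyp4a14 stood at 204.5 and 1755 FPKM in OE livers and at 309.0, 300.9 and 315.1 FPKM in WT livers, so that the high values were those of both lane L004 libraries that got 200 mg/kg or saline. The 300 mg/kg OE liver of that lane had 345.7 FPKM. Slc22a5, the carnitine importer, did not follow that split: it stood at 6.72 and 7.29 FPKM in OE APAP livers and at 2.76, 2.65 and 2.42 FPKM in WT APAP livers (1.31 ± 0.26, limma adjusted p = 0.0966).

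Cholesterol synthesis genes stood lower in OE APAP 1 than in OE APAP 2. Of 25 genes tested, 24 lay below the WT range in OE APAP 1, 10 of which passed as lower in that liver alone, against 12 below and 1 above in OE APAP 2, where none passed. In both OE livers together 12 lay below every WT liver and 0 above. The list median was -1.64 between the groups, -2.05 in OE APAP 1 and -0.30 in OE APAP 2. With the perfusion term the median of OE APAP 2 was -0.82. The medians of the WT livers were 0.09, 0.21 and -0.33 around their mean, so that OE APAP 2 lay among them without that term and below them with it. The pathway builds sterols from acetyl-CoA, and SREBP2, the product of Srebf2, switches its genes on when sterols run low.

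From the top of the pathway, Hmgcs1, which makes HMG-CoA, stood at 22.5 and 152.7 FPKM in OE APAP livers and at 269.3, 378.9 and 145.2 FPKM in WT APAP livers. OE APAP 1 lay far below, and OE APAP 2 lay inside the WT range. Idi1, which isomerises isopentenyl pyrophosphate, stood at 12.6 and 81.3 FPKM in OE livers and at 156.4, 146.2 and 97.8 FPKM in WT livers. Fdps, which makes farnesyl pyrophosphate, stood at 26.7 and 331.1 FPKM in OE livers and at 413.1, 405.4 and 372.3 FPKM in WT livers. Both lay below every WT liver in both OE livers, with OE APAP 1 alone at -3.27 ± 0.43 for Idi1 and -3.84 ± 0.55 for Fdps (limma adjusted p = 0.0151 and 0.0155). Sqle, which epoxidises squalene, stood at 7.005 and 46.7 FPKM in OE livers and at 62.7, 65.7 and 49.7 FPKM in WT livers. Cyp51, the lanosterol demethylase, stood at 12.5 and 69.1 FPKM in OE livers and at 114.1, 103.9 and 87.0 FPKM in WT livers (-2.24 ± 0.43 between the groups, limma adjusted p = 0.0966). Nsdhl, a later demethylation enzyme, stood at 1.80 and 33.1 FPKM in OE livers and at 45.8, 48.5 and 39.8 FPKM in WT livers, the lowest difference of the list in OE APAP 1 (-4.02). Srebf2 itself stood at 2.67 and 3.09 FPKM in OE livers and at 4.42, 5.63 and 3.88 FPKM in WT livers, below every WT liver in both.

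Upstream regions of Hmgcs1, Nsdhl and Mvk (mevalonate kinase) are shown because these 3 genes passed as lower in OE APAP 1 alone and their windows lie wholly before the gene in the deposited table. Each is the 250 bases before the start that RefSeq gives (GRCm38.p6), read 5′ to 3′ on the plus strand, at chr13:119690101-119690350 for Hmgcs1, chrX:72918271-72918520 for Nsdhl and chr5:114444019-114444268 for Mvk. Capitals mark matches, on either strand, to a sterol regulatory element written as TCACNCCAC and to the box written as CCAAT, and these matches do not overlap.
Hmgcs1: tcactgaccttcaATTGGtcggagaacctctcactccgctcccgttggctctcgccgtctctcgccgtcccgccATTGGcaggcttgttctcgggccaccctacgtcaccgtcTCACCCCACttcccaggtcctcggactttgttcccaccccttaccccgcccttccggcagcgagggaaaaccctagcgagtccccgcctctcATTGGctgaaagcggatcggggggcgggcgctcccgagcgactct
Nsdhl: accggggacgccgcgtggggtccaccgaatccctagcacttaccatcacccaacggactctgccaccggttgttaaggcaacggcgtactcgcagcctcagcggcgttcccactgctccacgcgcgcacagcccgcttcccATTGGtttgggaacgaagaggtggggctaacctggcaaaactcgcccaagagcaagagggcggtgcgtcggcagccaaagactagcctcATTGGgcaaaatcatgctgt
Mvk: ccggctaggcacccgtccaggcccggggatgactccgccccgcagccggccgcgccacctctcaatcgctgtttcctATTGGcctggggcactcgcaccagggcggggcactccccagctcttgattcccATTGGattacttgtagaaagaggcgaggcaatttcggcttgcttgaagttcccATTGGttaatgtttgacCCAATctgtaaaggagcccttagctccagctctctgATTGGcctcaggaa
The element TCACNCCAC was found in 1 of the 20 windows of this list (Hmgcs1) and in 346 of all 32851 windows of this length (1.05%). A CCAAT box was found in 16 of the 20 windows (80.0%) and in 33.8% of all windows, and 17 of the 25 genes had a window. The matches are a description of these letters and show no binding.

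The low values were shared by a liver that got no APAP. Under saline Fdps stood at 372.3 and 56.8 FPKM in OE livers and at 453.5, 382.8 and 408.7 FPKM in WT livers, and Nsdhl stood at 40.5 and 3.97 FPKM in OE livers and at 50.5, 42.6 and 47.2 FPKM in WT livers. The list median of OE saline 2 was -1.55 against the WT saline mean, and that of OE saline 1 was -0.05. The 300 mg/kg OE liver, also of lane L004, had a list median of -0.46 against the WT APAP mean, with 251.1 FPKM of Fdps. The part of lane, perfusion or another trait of OE APAP 1 and OE saline 2 in these values was not tested.

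**Figure D4:**
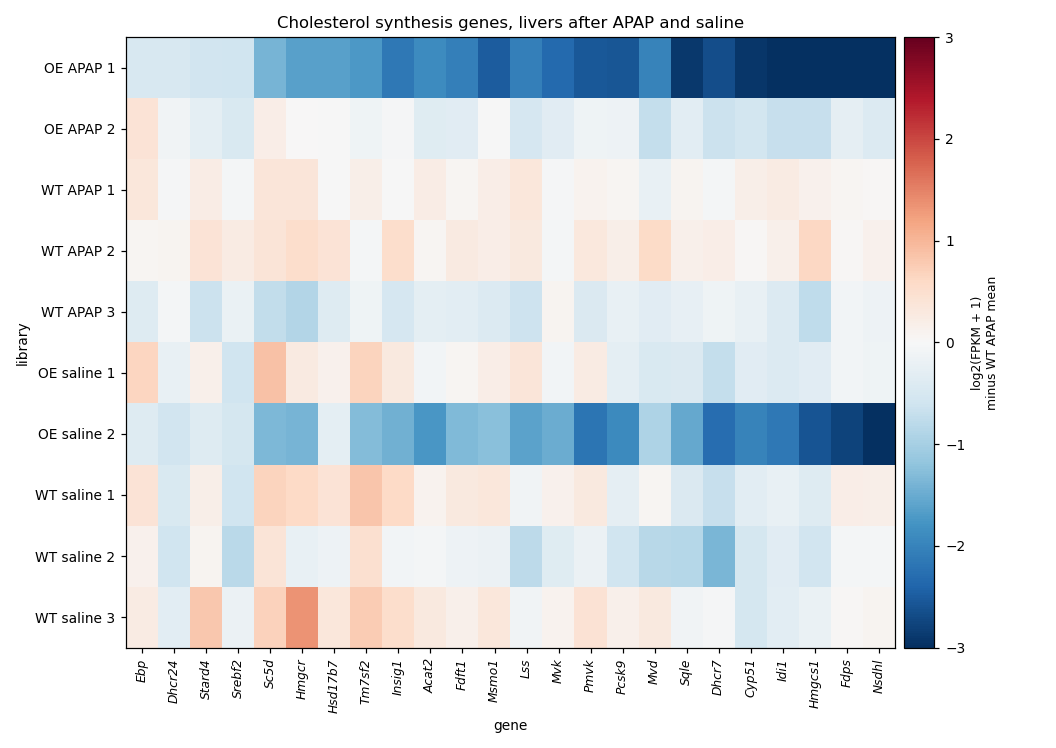
Log2(FPKM + 1) minus the mean of the 3 WT APAP livers (colour, cut off at 3) for cholesterol synthesis genes (columns, all but 1 member, ordered by the mean of both OE APAP livers) in the 5 APAP livers and the 5 saline livers of the same genotypes (rows). The rows of OE APAP 1 and OE saline 2 are blue for most genes, and OE APAP 2 is paler, with 12 of the 25 list members below every WT APAP liver.

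Lipogenic genes split likewise. Of 20 tested, 13 lay below the WT range in OE APAP 1 and 2 in OE APAP 2. Scd1, which puts a double bond into stearate, stood at 74.8 and 719.0 FPKM in OE APAP livers and at 1249, 1272 and 424.2 FPKM in WT APAP livers, so that OE APAP 2 lay inside the wide WT range. Fasn, fatty acid synthase, stood at 16.2 and 47.2 FPKM in OE livers and at 72.4, 130 and 39.6 FPKM in WT livers. Dgat2, the last enzyme of triglyceride synthesis, lay the other way in both, at 146.1 and 137.4 FPKM in OE livers and at 98.6, 85.1 and 85.3 FPKM in WT livers. Outside these lists, Serpina7, thyroxine-binding globulin, had the lowest difference among the genes that passed in OE APAP 1 alone, with 1.58 and 59.3 FPKM in OE livers and 61.4, 99.6 and 128.8 FPKM in WT livers (-5.18 ± 0.54 for OE APAP 1 alone, limma adjusted p = 0.00695). Slco1a1, an organic anion importer, stood at 5.87 and 53.6 FPKM in OE livers and at 120.0, 98.7 and 47.2 FPKM in WT livers.

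Heat shock genes stood above the WT range more often in OE APAP 1 than in OE APAP 2. Of 18 tested, 13 lay above the WT range in OE APAP 1 and 5 in OE APAP 2, with list medians of 0.998 and 0.08. With the perfusion term the median of OE APAP 2 was 0.58. None passed, and 8 had an unadjusted p below 0.05 between the groups. Hsph1, a large chaperone that recharges Hsp70, stood at 72.1 and 9.14 FPKM in OE APAP livers and at 16.6, 16.9 and 28.5 FPKM in WT APAP livers. It lay above every WT liver in OE APAP 1 and below every one in OE APAP 2. Hspa8, the constitutive Hsp70, stood at 1926 and 494.3 FPKM in OE livers and at 213.9, 263.7 and 601.6 FPKM in WT livers. Dnaja1, a co-chaperone of Hsp70, was above every WT liver in both, at 253.7 and 76.7 FPKM in OE livers and at 40.9, 46.6 and 56.7 FPKM in WT livers. Under saline Hsph1 stood at 5.55 and 94.8 FPKM in OE livers and at 7.57, 12.5 and 15.3 FPKM in WT livers, again highest in OE saline 2. Of 18 integrated stress response genes tested, 4 lay above and 10 below the WT range in OE APAP 1. In OE APAP 2, 2 lay above it and 5 below, and the list medians were -0.28 and -0.21. Ddit3, a stress factor of that list, had the same opposite order as Hsph1. It stood at 42.9 and 10.8 FPKM in OE APAP livers and at 18.3, 20.3 and 31.2 FPKM in WT APAP livers. Nr1i3, the drug-sensing receptor CAR, had this order too. It stood at 35.6 and 7.44 FPKM in OE APAP livers and at 12.1, 18.7 and 12.5 FPKM in WT APAP livers.

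The acute phase separated the OE livers in the other direction. Of 23 acute phase genes tested, 17 lay below the WT range in OE APAP 1 and 0 in OE APAP 2, while 3 lay above it in OE APAP 1 and 13 in OE APAP 2; the list medians were -0.89 and 0.56. Those of the WT livers were -0.29, -0.08 and 0.46 around their mean. Saa1, a serum amyloid made by the inflamed liver, stood at 39.5 and 5808 FPKM in OE APAP livers and at 578.5, 380.4 and 3256 FPKM in WT APAP livers. Lcn2, which binds bacterial iron carriers, stood at 8.57 and 725.1 FPKM in OE livers and at 34.8, 88.4 and 799.8 FPKM in WT livers, so that OE APAP 2 lay below WT APAP 3 and above the other 2. The WT livers spanned a wide range themselves, WT APAP 3 being the highest for both genes. Reads of Saa1 and Saa2 can be shared between these close copies. Fgg, the gamma chain of fibrinogen, stood at 1219 and 4648 FPKM in OE livers and at 4194, 5240 and 3524 FPKM in WT livers, and passed as lower in OE APAP 1 alone (-1.81 ± 0.34, limma adjusted p = 0.0362). Hamp, the iron hormone hepcidin, did not split: it stood at 1184 and 1155 FPKM in OE livers and at 298.7, 520.9 and 904.5 FPKM in WT livers.

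Metallothioneins, small zinc-binding proteins induced by metals and by inflammation, followed the acute phase. Mt2 stood at 10.3 and 1425 FPKM in OE APAP livers and at 78.1, 86.3 and 337.9 FPKM in WT APAP livers. Mt1 stood at 131.4 and 1757 FPKM in OE livers and at 182.5, 226.2 and 538.1 FPKM in WT livers. For both genes OE APAP 1 lay below every WT liver and OE APAP 2 above every one, and neither group difference passed. Under saline Mt2 stood at 36.1 and 1.81 FPKM in OE livers and at 1.58, 3.07 and 1.09 FPKM in WT livers. The 250 bases before each start (RefSeq, GRCm38.p6), chr8:94178839-94179088 for Mt1 and chr8:94172368-94172617 for Mt2, both on the plus strand, are shown because these neighbours shared this pattern. Capitals mark matches on either strand to the metal response element written as TGCACNC or TGCGCNC.
Mt1: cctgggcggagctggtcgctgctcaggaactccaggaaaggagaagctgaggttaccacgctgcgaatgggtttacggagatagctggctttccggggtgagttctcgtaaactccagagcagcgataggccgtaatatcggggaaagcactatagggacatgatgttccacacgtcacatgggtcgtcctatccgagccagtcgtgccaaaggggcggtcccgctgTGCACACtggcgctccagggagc
Mt2: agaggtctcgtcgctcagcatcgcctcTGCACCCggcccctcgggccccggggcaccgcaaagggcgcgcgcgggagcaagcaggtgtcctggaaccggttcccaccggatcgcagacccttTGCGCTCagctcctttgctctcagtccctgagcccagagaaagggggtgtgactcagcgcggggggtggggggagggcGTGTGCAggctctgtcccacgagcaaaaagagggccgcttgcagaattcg
Mt1 held 1 match and Mt2 held 3, and 21.4% of all windows of this length held at least 1. Only the bases before the RefSeq start were searched, so matches past that start are not counted and the promoters may hold more. Igfbp1, a fasting-induced binding protein of IGF, had the same opposite order as Mt2, at 9.08 and 286.2 FPKM in OE APAP livers and at 80.5, 54.9 and 56.3 FPKM in WT APAP livers. So did Lpin1, a phosphatidate phosphatase, at 1.25 and 41.1 FPKM in OE livers and at 25.4, 13.8 and 8.48 FPKM in WT livers.

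**Figure D5:**
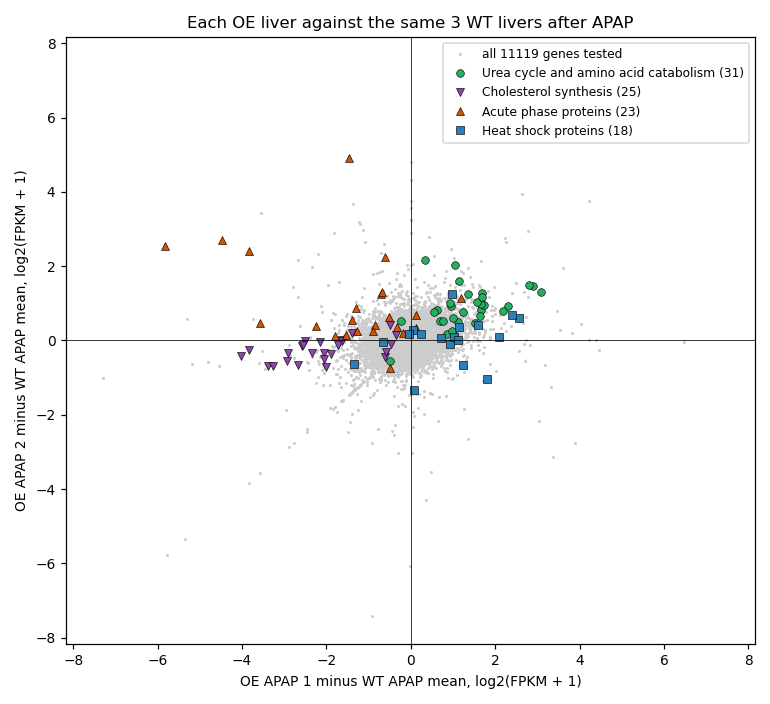
Difference of OE APAP 2 (y axis) against that of OE APAP 1 (x axis) from the mean of the same 3 WT APAP livers, in log2(FPKM + 1), for all 11119 genes tested (grey) and 4 gene lists (symbols). Amino acid genes lie mostly to the upper right, cholesterol genes to the left near the horizontal axis, and acute phase genes to the upper left. The axes share their WT libraries, so a common trend along the diagonal is built in.

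In OE APAP 2 alone 6 genes passed. Steap4, a metalloreductase induced in inflammation, stood at 54.3 and 397.6 FPKM in OE APAP livers and at 67.3, 85.4 and 99.3 FPKM in WT APAP livers, with OE APAP 1 below every WT liver. Plk3, a stress-responsive kinase, stood at 13.3 and 39.9 FPKM in OE livers and at 5.59, 7.38 and 6.18 FPKM in WT livers, above in both. D10Wsu102e stood at 4.84 and 11.2 FPKM in OE livers and at 3.84, 4.77 and 4.37 FPKM in WT livers. All 3 passed for OE APAP 2 at a limma adjusted p of 0.0332 with the perfusion term. The rest were short RNA genes (Mir8097, Gm25683 and Gm25588) listed at 0 in the other 4 livers and at 18.9, 10.9 and 6.43 FPKM in OE APAP 2. These short RNA genes met the filter at a mean of 1 FPKM only through OE APAP 2. Their higher value there was therefore fixed by the filter and is no result about that liver.

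Genes that handle APAP itself did not pass between the groups. Of 8 genes of P450 activation, 3 lay above and 1 below every WT liver in both OE livers. Cyp2e1, the main activating P450, stood at 1016 and 445.9 FPKM in OE APAP livers and at 438.1, 812.7 and 228.0 FPKM in WT APAP livers, which overlapped. Under saline it stood at 733.7 and 3831 FPKM in OE livers and at 2009, 2238 and 1999 FPKM in WT livers. Por, the reductase that feeds electrons to P450s, stood at 74.8 and 90.5 FPKM in OE APAP livers and at 57.6, 44.2 and 43.4 FPKM in WT APAP livers. Among 26 genes of the Nrf2 antioxidant programme, its regulators Nfe2l2 and Keap1 included, 2 lay above and 6 below. Abcc4, an efflux pump on the blood side of the hepatocyte that APAP is known to induce in mouse liver, stood at 0.87 and 1.29 FPKM in OE livers and at 3.62, 4.37 and 3.26 FPKM in WT livers. It did not overlap and just missed the threshold (-1.31 ± 0.19, limma adjusted p = 0.053). Its saline values were 0.65 and 0.43 FPKM in OE livers and 0.53, 0.49 and 0.53 FPKM in WT livers. Pgd, an NADPH-making enzyme of the pentose phosphate pathway, stood at 5.12 and 8.88 FPKM in OE APAP livers and at 15.4, 18.9 and 22.5 FPKM in WT APAP livers. Gclc, which limits glutathione synthesis, stood at 82.7 and 52.4 FPKM in OE livers and at 73.5, 82.8 and 66.7 FPKM in WT livers, on both sides of them. Of 23 genes of glutathione synthesis and transfer, 3 lay above and 0 below in both OE livers. Bile acid genes held 8 of 26 above and 1 below: Cyp8b1, which sets the share of cholic acid, stood at 107.2 and 49.9 FPKM in OE livers and at 33.6, 38.0 and 16.6 FPKM in WT livers.

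Genes of replication and of nonparenchymal cells stood lower or were mixed. Of 17 cell cycle genes tested, 0 lay above and 9 below every WT liver in both OE livers, with a list median of -0.61, most of them at a few FPKM. Mcm2, a subunit of the replicative helicase, stood at 0.54 and 1.098 FPKM in OE APAP livers and at 1.88, 2.92 and 3.16 FPKM in WT APAP livers (-1.09 ± 0.22, limma adjusted p = 0.107). Cdkn1a, the p21 inhibitor of the cycle, also lay below, at 1.24 and 2.56 FPKM in OE livers and at 2.97, 5.37 and 7.86 FPKM in WT livers. Of 16 sinusoidal endothelium markers 0 lay above and 7 below. All 18 markers of the list, tested or not, summed to 121.7 and 150.3 FPKM in OE livers. They summed to 172.4, 153.6 and 176.3 FPKM in WT livers. Fcgr2b, an Fc receptor of these cells, stood at 13.3 and 12.5 FPKM in OE livers and at 17.2, 34.9 and 28.1 FPKM in WT livers. Of 23 stellate cell and matrix genes, 2 lay above and 6 below. Fn1, fibronectin, which hepatocytes make too, stood at 87.7 and 108.7 FPKM in OE livers and at 175.8, 335.2 and 204.2 FPKM in WT livers. Dcn, the matrix proteoglycan decorin, lay the other way, at 106.3 and 87.0 FPKM in OE livers and at 57.6, 51.9 and 54.5 FPKM in WT livers.

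Immune markers followed single livers. Of 17 monocyte and infiltrating macrophage markers tested (3 of the list were under 1 FPKM), 0 lay above and 2 below every WT liver in both OE livers. All 20 markers of the list, tested or not, summed to 141.3 and 298.6 FPKM in OE APAP livers. They summed to 199.5, 170.7 and 575.3 FPKM in WT APAP livers, highest in WT APAP 3. Ccr2, the receptor of inflammatory monocytes, stood at 1.06 and 1.59 FPKM in OE livers and at 2.24, 2.06 and 7.27 FPKM in WT livers. Kupffer cell markers, of the resident macrophages, summed to 262.4 and 472.9 FPKM in OE livers and to 372.3, 227.6 and 476.6 FPKM in WT livers. Neutrophil genes, of which 10 of 15 were under 1 FPKM and Camp was listed at 0 in all 5 livers, summed to 6.85 and 80.7 FPKM in OE livers and to 17.0, 29.96 and 117.2 FPKM in WT livers. S100a8, a neutrophil granule protein, stood at 1.72 and 28.5 FPKM in OE livers and at 3.25, 5.64 and 40.8 FPKM in WT livers. WT APAP 3 and OE APAP 2 were thus the livers with the most neutrophil transcripts and the most Saa1, and OE APAP 1 had the least of both. The part of these cells in the acute phase values was not tested. In OE APAP 2, the perfused liver, 4 of 7 tested erythroid and platelet genes lay below every WT liver and 2 lay above. Hbb-bs, a beta globin, stood at 159.5 and 42.9 FPKM in OE livers and at 158.0, 71.6 and 141.0 FPKM in WT livers. Under saline the list summed to 226 FPKM in OE saline 1, which was perfused, and to 179.4 FPKM in OE saline 2, which was not. The part of perfusion in these values was not tested.

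Genes of all kinds were also ranked by the gap between the groups, from the OE liver nearest to the WT livers. Mat1a led the higher ones, followed by Etnppl, which degrades phosphoethanolamine. Etnppl stood at 195.8 and 61.6 FPKM in OE APAP livers and at 28.1, 8.49 and 14.3 FPKM in WT APAP livers (3.005 ± 0.48, limma adjusted p = 0.0862). Fabp2, a fatty acid binding protein best known from the gut, stood at 116.6 and 105.8 FPKM in OE livers and at 52.3, 42.7 and 34.9 FPKM in WT livers. Cish, a feedback inhibitor of STAT5 signalling, stood at 6.35 and 4.41 FPKM in OE livers and at 1.17, 1.70 and 0.93 FPKM in WT livers. Among the lower ones, Cited2, a transcriptional coregulator, stood at 1.28 and 1.62 FPKM in OE livers and at 4.49, 5.81 and 4.92 FPKM in WT livers. Bcl6, a repressor that opposes STAT5 in the liver, stood at 1.98 and 0.95 FPKM in OE livers and at 3.83, 8.16 and 6.97 FPKM in WT livers, below where Cish was above. Arrdc3, an arrestin-domain adaptor, stood at 11.6 and 7.36 FPKM in OE livers and at 45.8, 22.5 and 31.8 FPKM in WT livers, though under saline it stood at 77.8 and 89.7 FPKM in OE livers and at 63.0, 40.6 and 23.7 FPKM in WT livers. These genes were chosen for not overlapping, so that their separation is a description, and Arrdc3, Cish, Bcl6 and Cited2 did not pass (limma adjusted p = 0.124, 0.19, 0.238 and 0.122).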

How the data were processed

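Total liver RNA was sequenced in 17 libraries with a stranded paired-end kit, per the labels' protocols. The authors deposited 1 table of gene values, taken here as FPKM. No header names the unit, and it was inferred from the values and from the submitters' processing notes, which list bcl2fastq 2.17.1.14, TopHat2 2.0.9, Cufflinks 2.2.1, Cuffdiff and GRCm38.p5. Read counts were not used here, so the depth is unknown. Of 11177 genes averaging 1 FPKM or more in the 5 livers, 58 were dropped for failed estimates (listed at 0 throughout a genotype and drug group while averaging 10 FPKM or more elsewhere, or next to such a gene with the same groups at 0). Differences were fitted on log2(FPKM + 1), which understates changes of low genes, with limma 3.58.1 and statmod 1.5.0 in R 4.3.3 (trended, robust, 8 groups plus perfusion, Benjamini-Hochberg threshold 0.05). The fit was tested on simulated data for OE APAP minus WT APAP over 11119 genes. It recovered 53 of 100 genes changed by 1 and 92 of 100 changed by 2 on the log2 scale, with 5 false calls. The simulated noise was independent between genes and libraries, the change was the same in both OE libraries, and no lane effect was put in. The real OE livers differed from each other and shared no lane with the WT livers, so these recovered shares cannot be carried over to them. Gene lists were matched by symbol. The members and lists were chosen with earlier results of these data known. Genes named beyond the lists were those that passed, the widest gaps between groups that did not overlap, and the largest differences of each OE library. Close copies (Saa, Cyp4a, globin and Hsp70 genes) can share reads. Alternatives changed the covariates, pseudocount, filter, normalization, weights and libraries. The values of 1 member each of the amino acid and cholesterol lists are not reported here, though they count in the list totals.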

Additional observations from a re-analysis of the deposited data

How the results depend on the processing

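Between OE and WT APAP livers 1 gene passed. The count was 0 with no perfusion term (1663 genes at an unadjusted p below 0.05 in limma), with lane in place of perfusion (918), with only the 5 libraries (974), with quantile normalization (1740) and with array weights (1435), whose estimation did not reach its tolerance. It was 3 with no filter and 4 with failed estimates kept. A further pair of alternatives was chosen after seeing the data, non-perfused livers only (32) and leaving out OE APAP 1 with OE saline 2 (4). Leaving out 1 library gave 0 to 121, with 121 without OE APAP 2, 66 without WT saline 3, 43 without WT APAP 1, 7 without Het APAP 1 and 6 without OE APAP 1. For OE APAP 1 alone the 121 genes became 72 with no perfusion term, 1 with lane, 16 with only the 5 libraries, 214 with no filter (175 higher, 39 lower, against 57 and 64) and 1370 with array weights. Leaving out 1 library gave 27 (without WT APAP 2) to 552 (without OE saline 2). For OE APAP 2 alone the 6 genes became 2 with lane, 3 with only the 5 libraries, 0 at a pseudocount of 0.1 (506 unadjusted), 2 with a filter at 5 FPKM, 179 with no filter and 3 with quantile normalization. Leaving out 1 library gave 3 to 6. The difference of differences gave 0 genes, 1 with no filter, 9 with failed estimates kept, and 0 to 3 on leaving out 1 library. It has no value with lane or with only the 5 libraries. Nampt, 1.05, ranged over single libraries left out between 0.51 (without OE APAP 1) and 1.40 (without OE APAP 2, when it passed), and was 0.426 without OE APAP 1 and OE saline 2. Among 43 pairs of a named gene and a comparison, in which some genes recur, 899 of 1058 alternative values kept direction and call. Of the rest 134 lost the call, 25 gained it and none reversed. Values that passed neither in the main fit nor in the alternative count as kept, and only pairs that passed in the main fit could lose the call. Of the pairs between the groups only Gpt2 had passed, and it lost the call in 17 of 26 settings. Sizes also moved where direction and call were kept. With lane in place of perfusion, Asl fell from 2.58 to 1.21 and Oat, of the amino acid list, from 1.53 to 0.08. Fabp2 rose from 1.34 to 1.875 and Cish from 1.485 to 1.99. The cause of these changes was not tested. No paired analysis was possible because the labels carry no replicate numbers. The unknown depth and the 2 OE libraries limit every value.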

Other observations

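Some secreted liver proteins were listed at 0 throughout the Het APAP group and were left out of the fit as failed estimates, yet carried values in all 5 livers. Fga, the alpha chain of fibrinogen, stood at 1452 and 5874 FPKM in OE APAP livers and at 5320, 7407 and 4455 FPKM in WT APAP livers. Fgb, its beta chain, stood at 830.3 and 2767 FPKM in OE livers and at 2435, 3011 and 2212 FPKM in WT livers. For both genes OE APAP 1 was the lowest liver and OE APAP 2 lay inside the WT range, the order that Fgg, the third chain, also had. Mup19 is a major urinary protein of the male mouse, and its reads can be shared with close copies. It was also listed at 0 throughout the WT saline group. It stood at 85.4 and 89.96 FPKM in OE livers and at 18.0, 23.3 and 11.0 FPKM in WT livers. Both OE livers lay above every WT liver. The other Mup genes left out as failed were mixed. Mup10, Mup11, Mup14 and Mup15 also lay above in both, and Mup1 lay below in both. The rest overlapped.

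Chaperones of the endoplasmic reticulum, which fold secreted proteins, lay below the WT range for 15 of 21 genes in OE APAP 2 and for 9 in OE APAP 1, with list medians of -0.45 and -0.06. Complement and coagulation genes lay above the WT range for 22 of 31 genes in OE APAP 2 and for 11 in OE APAP 1, with list medians of 0.40 and 0.03, that of OE APAP 2 being 0.06 with the perfusion term. The differences between both OE livers in these lists were not tested.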
